A study of Mus musculus with 2 samples.

Results

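Lymphatic and venous endothelial cells of the mouse ileum were compared with each other in 2 single-cell RNA libraries, and the genes that both classes shared against capillary endothelial cells were then named. Cells were chosen by their counts of unique molecular identifiers (UMIs) of a few genes. A cell was called lymphatic when Mmrn1, Lyve1, Reln and Prox1 together had at least 5 UMIs and more than 4 times the UMIs of the blood vessel genes Flt1, Cd34, Plvap and Esam. It was called venous when those blood vessel genes had at least 5 UMIs, the lymphatic genes at most 2, and Ackr1, Selp and Madcam1 together at least 4. By this rule 1071 cells were lymphatic and 531 venous, 1602 of the 7045 cells kept from both libraries. The genes of the gates and the sorted proteins chose the cells and were left out of every test.

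Mice of the strain C57Bl/6 gave the tissue, the small intestine, which the series' design text narrows to the ileum, its last stretch; they were male, wild-type and 8 weeks old. Viable cells lacking EpCAM and CD45 and carrying CD31 had been sorted as PDPN-negative blood endothelium and PDPN-positive lymphatic endothelium. Both libraries carry the same labels, form 1 group (n = 2) and hold no treated or mutant sample. The labels tie no cell to a sort gate and no library to a separate mouse. The p-values therefore measure only how far class differences disagreed between these libraries, a spread that may be technical. That spread was estimated mostly from all genes together and little from each gene, so very small p-values do not show agreement between mice.

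Lymphatic vessels take up fluid, fat-laden particles and immune cells from the tissue and carry them away, and their capillaries lack a tight wall. Venules are the stretch of the blood circulation where leukocytes roll, stick and cross into tissue, a process run by selectins, integrin ligands and chemokines on the vessel surface. In the embryo the first lymphatic endothelial cells bud from veins under the transcription factors Sox18, Nr2f2 and Prox1.

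Library 1 gave 81 lymphatic, 97 venous and 243 capillary cells of 978 kept, and library 2 gave 990, 434 and 1152 of 6067. Lymphatic cells were 8.28% of the kept cells in library 1 and 16.3% in library 2, and venous cells 9.92% and 7.15%, shares that the sort can set. Lymphatic cells were shallower, with medians of 2854 and 2154.5 UMIs a cell, than venous cells with 5325 and 6339.5. Summed over a class and library, depths ran from 265004 UMIs (lymphatic, library 1) to 4141144 (capillary, library 2). Levels below are CPM, UMIs scaled to a class sum of 1000000, the first value from library 1 and the second from library 2. Capillary cells, the class both others were set against, were 1395 cells with the same blood and lymphatic limits as venous cells, no UMI of Ackr1, Selp or Madcam1, at most 1 UMI of 6 arterial genes and at least 3 of Plvap, Gpihbp1 and Aqp1. The libraries shared 2 barcodes.

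The class names were set beside markers that the gates had not used. The lists were chosen with earlier results of these data known. Some markers, such as Thy1, Sele and Adgrg6, are also among the leading differences below, so this is not an independent check. All 10 lymphatic markers, among them Flt4, Ccl21a, Thy1, Maf and the sorted Pdpn, were higher in lymphatic cells of both libraries, and their summed level was 15449 and 14877 CPM there against 203 and 187 CPM in venous cells. Of 10 venous markers, 7 were higher in venous cells without overlap, while Nr2f2, Ephb4 and Ackr2 were higher in lymphatic cells. The share of all genes tested without overlap was not computed, so these counts are descriptions. The 8 capillary markers outside the gates summed to 6232 and 5825 CPM in capillary cells. They summed to 3205 and 3734 CPM in venous and 1532 and 1517 CPM in lymphatic cells. Venous cells near the edge of their gate differed from the rest: in library 2, 31 cells with 4 to 6 UMIs of Ackr1, Selp and Madcam1 had 4169 CPM of venous markers, 253 excluded cells with 1 to 3 UMIs had 1155 CPM, and all venous cells 8083 CPM. At the lymphatic edge of library 2, 18 cells with 5 to 7 UMIs of the lymphatic gate genes had 7076 CPM of lymphatic markers and 12 excluded cells with 2 to 4 UMIs had 5547 CPM.

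Transcripts of other cell types were in part concentrated in single cells and in part spread. Of 5923 UMIs of 8 B and plasma cell markers in lymphatic cells, 5615 were in 1 cell, and of 9016 in venous cells 8878 were in 1 cell. UMIs of the 8 T and NK cell markers were spread over cells, with at most 5 of 64 in 1 lymphatic cell of library 2. They summed to 26.4 and 24.8 CPM in lymphatic and to 0 and 0.345 CPM in venous cells. Few of the markers gave them: 7 of the 8 were at 0 in lymphatic cells of library 1 and 5 in library 2. Of 721 UMIs of 8 fibroblast markers in venous cells, 467 were in 1 cell. In capillary cells of library 2, 7976 of 8062 UMIs of 11 epithelial cell markers were in 1 cell. The 10 myeloid markers summed to 109 and 122 CPM in lymphatic and to 0 and 14.8 CPM in venous cells, and 1 lymphatic cell held 28 of their 29 UMIs in library 1 and another 198 of 315 in library 2. Their part in the results was not tested gene by gene. The comparisons were repeated without cells that held a UMI of Ptprc, Igkc, Jchain, Epcam or Pdgfrb. Leaving these cells out took B and plasma cell markers of library 2 to 44.7 CPM in lymphatic and 17.1 CPM in venous cells. It took epithelial cell markers in capillary cells of library 2 from 1947 to 20.9 CPM. Fibroblast markers stayed at 7.63 and 311 CPM in venous cells. In lymphatic cells T and NK cell markers stayed at 27.0 and 25.2 CPM and myeloid markers were at 112 and 37.1 CPM. The repeat thus removed little of the fibroblast and T and NK cell transcripts, or of the myeloid ones in library 1.

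Of 10394 genes tested, 1126 (10.8%) were called higher and 1061 (10.2%) lower in lymphatic than in venous cells. Counts of list members given below are to be read beside these shares. A gene was called when edgeR's quasi-likelihood test gave a Benjamini-Hochberg adjusted p under 0.05 and its CPM differed at least 2-fold in the same direction in each library. At the adjusted p alone, 4200 genes (40.4%) passed. Differences are given, in parentheses, as the fitted log2 of lymphatic over venous ± standard error, with a median of 0.02 over all genes tested. The fit scales by TMM, and without that scaling the median was 0.25, so a fitted value lies about that much below the plain ratio of CPM values.

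The genes with the largest excess in lymphatic cells were close to absent from venous cells. Sh3gl3 (chr7:82173840-82307419 on GRCm38), an endophilin family gene, had 169.8 and 181 CPM in lymphatic cells and no UMI in venous cells of either library, at least 201-fold higher against a floor of 3 counts over the class. Mrc1, the mannose receptor, had 162 and 151 CPM and no venous UMI, at least 179-fold higher, and its UMIs were spread over 31 of 81 and 275 of 990 lymphatic cells. Mrc1 is also a macrophage gene; the most UMIs of it in 1 lymphatic cell were 11.6% of the total in library 1 and 2.32% in library 2, and the part of the myeloid transcripts given above was not tested. Duox2, a hydrogen peroxide-producing oxidase, had 106 and 129 CPM and again no venous UMI, at least 134-fold higher.

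The same held for a protein kinase, a chemokine-scavenging receptor and a Notch regulator. Prkcq, encoding protein kinase C theta, had 121 and 108 CPM in lymphatic cells and no venous UMI, at least 131-fold higher. Ackr2, a decoy receptor that takes up inflammatory CC chemokines, had 83.0 and 102 CPM against no venous UMI, at least 106-fold higher. Dtx1, an E3 ligase of the Notch pathway, had 774 and 669 CPM against 0 and 0.345 CPM in venous cells (10.69 ± 0.37). Thy1, a surface glycoprotein of T cells and of lymphatic endothelium, had 743 and 791 CPM against 0 and 0.690 CPM (10.03 ± 0.35). The 5 others of the 12 were Scn3b, Nrxn2, Rtkn, Tnfaip8l3 and Gm14964, at 67.9 to 125 CPM in lymphatic cells and without a venous UMI. With DESeq2 in place of edgeR, Sh3gl3, Nrxn2 and Gm14964 were not called.

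**Figure D1:**
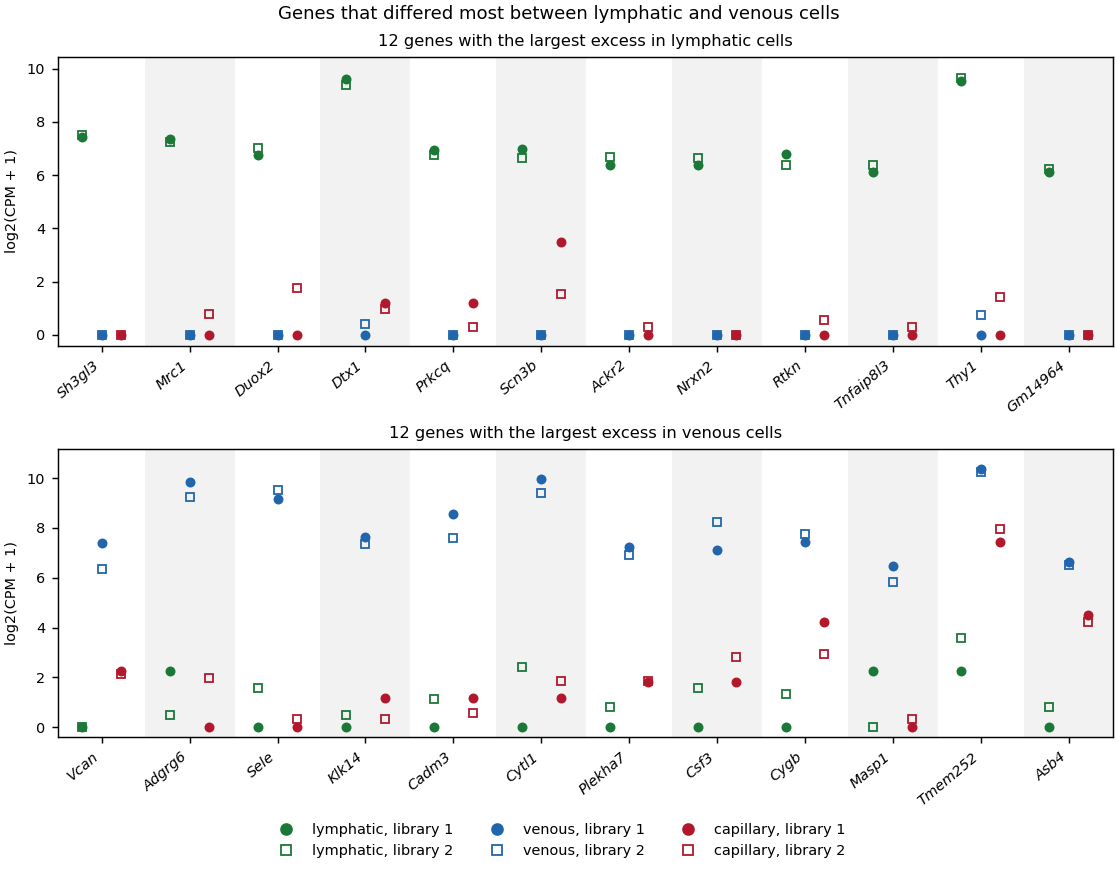
Levels of the 12 genes with the largest excess in lymphatic cells (top) and in venous cells (bottom), as log2(CPM + 1) in lymphatic, venous and capillary cells, with 1 point for each library (filled, library 1; open, library 2). In every gene shown the 2 lymphatic points and the 2 venous points do not overlap. Tmem252, at 173 and 244 CPM, has the highest capillary points of the 24 genes.

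The genes most in excess in venous cells included matrix, adhesion and receptor genes. Sele (chr1:164048234-164057677), E-selectin, on which leukocytes roll, had 575 and 737 CPM in venous cells, 0 and 1.94 CPM in lymphatic cells and 0 and 0.241 CPM in capillary cells (-8.86 ± 0.32, adjusted p = 3.02e-77). Adgrg6, an adhesion G protein-coupled receptor, had 918 and 608 CPM against 3.77 and 0.388 CPM (-9.92 ± 0.35). Vcan, the matrix proteoglycan versican, had 169 and 80.7 CPM in venous cells and no lymphatic UMI, at least 118-fold higher, and lay in 33 of 97 and 114 of 434 venous cells. All 3 separated venous cells from both other classes in each library.

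Secreted products followed. Cytl1, a small secreted protein, had 1006 and 682 CPM in venous and 0 and 4.27 CPM in lymphatic cells (-7.77 ± 0.28). Csf3, the granulocyte growth factor G-CSF, had 139 and 300.1 CPM against 0 and 1.94 CPM (-7.52 ± 0.36) and was found in 15 of 97 and 83 of 434 venous cells. Masp1, a serine protease of the lectin pathway of complement, had 88.2 and 55.9 CPM against 3.77 and 0 CPM (-7.33 ± 0.58). The 6 others were Klk14, Cadm3, Plekha7, Cygb, Tmem252 and Asb4, at 91.4 to 1333 CPM in venous and at most 10.9 CPM in lymphatic cells.

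Transcription factors tied to lymphatic identity were split. Of 14 tested, 7 were higher and 3 lower in lymphatic cells, and of 20 tied to blood vessels 3 were higher and 7 lower. Over all genes tested, 10.8% were higher and 10.2% lower. Maf, which acts in lymphatic valve and capillary programs, had 1487 and 1586 CPM in lymphatic and 3.76 and 3.45 CPM in venous cells (8.56 ± 0.26). Tbx1, needed for gut lymphatic growth, had 309 and 374 CPM against 0 and 2.07 CPM (7.44 ± 0.33). Sox18 had 460.4 and 431 CPM against 165 and 179 CPM (1.11 ± 0.16) and did not separate lymphatic from capillary cells, which had 364 and 449.9 CPM.

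Nr2f2, the COUP-TFII gene that sets venous identity, was called in favour of lymphatic cells. Its level was 1023 and 996 CPM in lymphatic, 501 and 481 CPM in venous and 21.7 and 33.1 CPM in capillary cells. The lymphatic and venous values did not overlap, but the fitted difference was only 0.80 ± 0.15, and the call was lost with equal cell numbers and with cells thinned to 1500 UMIs. Foxc1, a forkhead factor, went the other way, at 86.4 and 111 CPM in venous against 11.3 and 39.6 CPM in lymphatic cells (-1.87 ± 0.23). The blood vessel factor Nkx2-3, an organ identity gene of gut and spleen vessels, had 469 and 435 CPM in venous and 0 and 10.5 CPM in lymphatic cells (-5.81 ± 0.25). Foxp2, also on the blood vessel list, had 64.2 and 50.9 CPM in lymphatic cells and no venous UMI, at least 65.8-fold higher.

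Of 13 adhesion molecules for leukocytes tested, 6 were higher in venous cells (Sele, Vcam1, Icam1, Jam2, Mcam and Cd44) and 1, Emcn, in lymphatic cells, with a median log2 difference of -1.68. The venous gate itself used the adhesion genes Selp and Madcam1. The part of that gate in the adhesion, chemokine and cytokine differences was not tested. Icam1, the ligand of leukocyte beta2 integrins, had 3376 and 2719 CPM in venous, 328 and 328 CPM in lymphatic and 244 and 273 CPM in capillary cells (-3.44 ± 0.15, adjusted p = 1.37e-59). Vcam1, the ligand of alpha4 integrins, had 518 and 540.2, 3.77 and 5.44 and 2.56 and 15.5 CPM in the same order (-6.96 ± 0.28). Both stood apart in venous cells, while lymphatic and capillary values lay close together. Jam2, a junctional adhesion molecule, was instead shared by venous cells at 329 and 366 CPM and capillary cells at 435 and 404 CPM, with 0 and 11.6 CPM in lymphatic cells (-5.32 ± 0.25).

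Chemokines divided into a lymphatic and a venous set. Ccl21a, the CCR7 ligand that draws dendritic cells and T cells into lymphatics, had 6638 and 5832 CPM in lymphatic and 5.63 and 8.97 CPM in venous cells (9.30 ± 0.23); near-identical gene copies share its reads, so its level is uncertain. Ccl2, a monocyte attractant, was also higher in lymphatic cells, at 15.1 and 49.3 CPM against 1.88 and 5.17 CPM (2.99 ± 0.40). It rested on few cells: in library 2 it lay in 29 of 990 lymphatic cells, with 29 of 127 UMIs in 1 cell. There 12 of its 15 venous UMIs were in 1 cell. Venous cells had more of 5 of the 10 ligands tested, Cxcl1, Cxcl9, Cxcl10, Cxcl16 and Cx3cl1. Cxcl10, an interferon-induced T cell attractant, had 466 and 451 CPM in venous, 0 and 10.9 CPM in lymphatic and 6.39 and 9.42 CPM in capillary cells (-5.81 ± 0.25). Cxcl1, a neutrophil attractant, had 111 and 86.9 CPM against 0 and 10.1 CPM (-3.57 ± 0.30), with 39 of its 59 venous UMIs in library 1 in 1 cell.

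Among cytokine ligands, Il7 and Il33 were higher in lymphatic and Il6, Csf1, Csf3 and Kitl in venous cells, 6 of 9 tested. Il7, the survival factor of lymphocytes, had 162 and 135 CPM in lymphatic and 5.63 and 1.38 CPM in venous cells (5.79 ± 0.37). The alarmin Il33 had 442 and 401 CPM against 52.6 and 39.3 CPM (3.03 ± 0.19). Il6, a pleiotropic inflammatory cytokine, had 327 and 368 CPM in venous, 0 and 12.8 CPM in lymphatic and 34.5 and 80.9 CPM in capillary cells (-5.35 ± 0.27). Kitl, the mast cell and stem cell factor, had 345 and 299 CPM in venous and 0 and 17.5 CPM in lymphatic cells (-4.54 ± 0.24), and capillary cells had 652 and 518 CPM.

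Receptors for cytokines moved in 1 direction among those called: 7 of 16 were higher in venous cells and 9 were not called. Il1r1, the interleukin-1 receptor, had 349 and 287 CPM in venous and 34.0 and 49.3 CPM in lymphatic cells (-2.94 ± 0.20). Lifr, the receptor of leukemia inhibitory factor, had 695 and 459 CPM against 60.4 and 52.4 CPM (-3.51 ± 0.19). Both receptors of tumor necrosis factor, Tnfrsf1a (-2.26 ± 0.19) and Tnfrsf1b (-2.51 ± 0.27), were among the 7.

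NF-kB is the transcription factor family that switches on adhesion molecules, chemokines and its own inhibitors after cytokine signals. Of 18 pathway genes tested, 12 were higher in venous cells and 6 were not called, with a median log2 difference of -2.04. Venous cells had been chosen by Ackr1, Selp and Madcam1, and the part of that choice in these differences was not tested. Nfkbia, the inhibitor that NF-kB induces, had 2691 and 2463 CPM in venous, 528 and 509 CPM in lymphatic and 798 and 921 CPM in capillary cells (-2.56 ± 0.15). Tnfaip3, the feedback inhibitor A20, had 219.7 and 409 CPM against 41.5 and 29.1 CPM (-3.75 ± 0.22), and Traf1, an adaptor of receptors of the tumor necrosis factor family, 109 and 115 CPM against 3.77 and 9.32 CPM (-3.97 ± 0.29). Against capillary cells, 6 of the 18 were higher in venous cells, where 4.47% of all tested genes were, and 3 were lower in lymphatic cells, where 11.8% were.

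The start regions of 4 of these genes are shown because they carry the NF-kB consensus, the letters the factor is known to bind, in the bases before the gene start. Of the 37 adhesion, chemokine, cytokine and NF-kB genes called higher in venous cells, 29 had a start region in the RefSeq table (build GRCm38.p6), and 11 of these (37.9%) had a match on either strand in the 250 bases before the start. A match was found in 4.46% of all 27025 genes listed there, in 5.55% of the 8149 tested genes with an entry, in 8.48% of the 790 among those called higher in venous cells, and in 6.79% of the 839 among those called higher in lymphatic cells. The share among members of the same lists not called higher in venous cells was not computed. The 37.9% is therefore a description of these listed genes and not a result about the venous difference. The 180 bases before the start are printed 5′ to 3′ on the gene's strand, with the match in capitals; a match is a description of letters and not a binding site. Cxcl10 lies at chr5:92348890-92349069 (minus strand), Il6 at chr5:30012934-30013113 (plus strand), Nfkbia at chr12:55492648-55492827 (minus strand) and Csf1 at chr3:107760470-107760649 (minus strand).
Cxcl10: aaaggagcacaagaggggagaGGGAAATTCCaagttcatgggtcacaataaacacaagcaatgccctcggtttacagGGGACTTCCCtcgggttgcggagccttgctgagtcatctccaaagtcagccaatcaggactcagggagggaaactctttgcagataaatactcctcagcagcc
Il6: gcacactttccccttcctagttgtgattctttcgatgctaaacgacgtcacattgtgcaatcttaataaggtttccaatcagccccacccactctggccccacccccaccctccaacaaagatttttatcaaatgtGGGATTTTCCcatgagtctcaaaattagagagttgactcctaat
Nfkbia: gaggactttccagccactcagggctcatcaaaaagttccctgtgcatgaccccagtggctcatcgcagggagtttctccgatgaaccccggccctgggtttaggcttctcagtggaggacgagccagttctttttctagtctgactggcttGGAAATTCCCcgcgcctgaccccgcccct
Csf1: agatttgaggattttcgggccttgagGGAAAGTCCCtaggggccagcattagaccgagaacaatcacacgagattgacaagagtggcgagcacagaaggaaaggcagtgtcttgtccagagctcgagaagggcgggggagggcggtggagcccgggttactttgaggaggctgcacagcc

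Matches began 159 and 103 bases before the start in Cxcl10, 44 in Il6, 29 in Nfkbia and 154 in Csf1; those of Nfkbia and Csf1 were on the opposite strand. Cxcl1, Ccrl2, Il1r1, Nfkb2, Tnfaip3, Irf1 and Tnip1 were the other 7 genes with a match. Madcam1, a gene of the venous gate and so not tested, had matches on the opposite strand that began 83 and 70 bases before the start.

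Immediate early genes, which are transcribed within minutes of a stimulus, were higher in venous cells in 17 of 22 cases, higher in lymphatic cells in 1 (Maff), and not called in 4, with a median of -2.03. Zfp36, an RNA-binding protein that speeds decay of cytokine transcripts, had 2356 and 2116 CPM in venous, 1136 and 1365 CPM in capillary and 291 and 318 CPM in lymphatic cells (-3.11 ± 0.15). Socs3, a feedback inhibitor of cytokine signals, had 1968 and 1591, 852 and 1068 and 90.6 and 189.9 CPM in the same order (-3.74 ± 0.20). Atf3, a stress-induced factor, had 1292 and 1229, 523 and 521 and 185 and 170.4 CPM (-3.08 ± 0.16). The lymphatic values were the lowest of the 3 classes in both libraries for all 3 genes. Of the 22 genes, 15 were lower in lymphatic than in capillary cells, beside 11.8% of all genes tested. Only 2 of the 22 were higher in venous than in capillary cells, beside 4.47% of all genes tested. Mitochondrial UMIs, which can mark damaged cells, had medians of 3.51 and 5.29% in lymphatic, 3.86 and 3.73% in venous and 2.32 and 2.57% in capillary cells; their part in these differences was not tested. With all cells thinned to 1500 UMIs the counts were again 17 immediate early and 12 NF-kB genes.

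**Figure D2:**
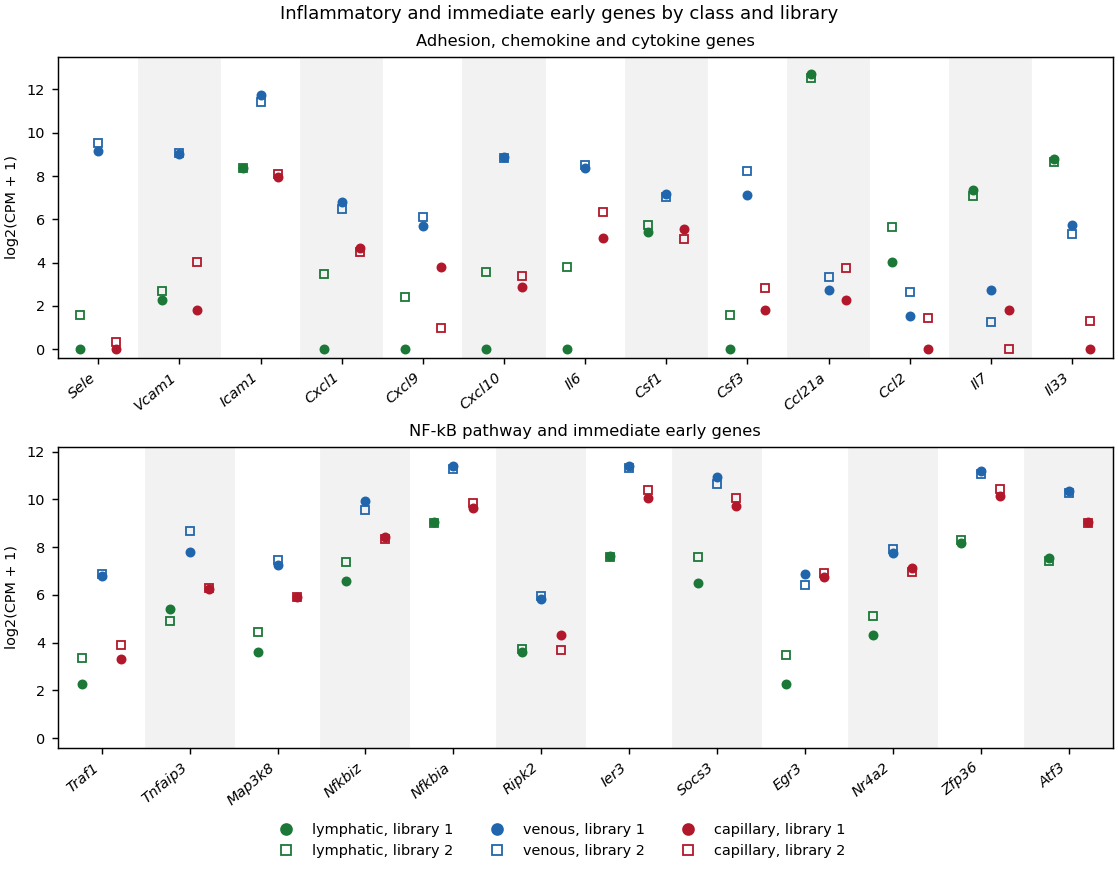
Adhesion, chemokine and cytokine genes (top) and NF-kB pathway and immediate early genes (bottom), as log2(CPM + 1) in each class, with 1 point for each library (filled, library 1; open, library 2). Venous points lie above lymphatic points in both libraries for every gene except Ccl21a, Ccl2, Il7 and Il33, for which the lymphatic points lie above.

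Signals that act on neighbouring cells also differed in kind. Wnt2, a Wnt ligand, had 132 and 168 CPM in lymphatic and 0 and 0.345 CPM in venous cells (8.62 ± 0.48). Rspo3, an R-spondin that amplifies Wnt signals to intestinal stem cells, had 268 and 263 CPM against 1.88 and 2.41 CPM (6.56 ± 0.33). Wnt5a, a ligand of the non-canonical Wnt pathway, had 16.9 and 7.24 CPM in venous cells and no UMI in lymphatic cells, at least 11.4-fold higher, a call that DESeq2 did not make. Tgfb2 had 539.6 and 399 CPM in lymphatic and 0 and 2.41 CPM in venous cells (7.47 ± 0.31) and was the only called member of the BMP and TGF-beta list in that direction. The 6 of 15 members higher in venous cells were Inhbb, Acvrl1, Eng, Bmpr2, Smad6 and Smad7. Against capillary cells, venous cells had 0 of the 15 higher and 3 lower, beside 4.47% and 5.51% of all genes tested. Lymphatic cells had 1 higher and 7 lower than capillary cells, beside 9.81% and 11.8%.

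Growth factor ligands for vessels were mostly on the lymphatic side, 5 of 9 tested, with Vegfc on the venous side. Pgf, placental growth factor, had 106 and 108 CPM in lymphatic and 0 and 1.38 CPM in venous cells (6.24 ± 0.43), and Angpt2, a ligand of the Tie2 receptor, 158 and 104 CPM against 9.39 and 26.2 CPM (2.12 ± 0.25). Vegfc, the ligand of the lymphatic receptor Flt4, had 105 and 129 CPM in venous and 0 and 4.27 CPM in lymphatic cells (-5.30 ± 0.34). The receptor Flt4 itself had 2026 and 1574 CPM in lymphatic cells and at most 37.6 CPM in venous cells (5.49 ± 0.20), so ligand and receptor differed in opposite directions. Kdr, the main receptor of VEGF-A, was lowest in venous cells, at 249.7 and 399 CPM against 1396 and 1282 CPM in lymphatic (1.76 ± 0.15) and 1725 and 1631 CPM in capillary cells. Tek, the Tie2 receptor, was higher in venous cells, at 526 and 424 CPM against 113 and 119.6 CPM (-2.18 ± 0.17).

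Axon guidance genes were called higher in lymphatic cells in 7 of 21 cases and lower in 3, beside 10.8% and 10.2% of all genes tested. Ntn1, netrin-1, had 1038 and 1189 CPM in lymphatic and 46.9 and 61.7 CPM in venous cells (4.08 ± 0.18). Sema3d had 400.0 and 365 CPM against 0 and 1.72 CPM (7.71 ± 0.33) and Sema3a 109 and 127 CPM against 0 and 0.345 CPM (8.24 ± 0.51); both encode secreted semaphorins. Slit2, a repellent cue, was on the venous side, at 41.3 and 23.5 CPM and without a lymphatic UMI, at least 30.7-fold higher, though DESeq2 did not call it.

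Of 12 coagulation genes tested, Vwf, Procr, F5 and Entpd1 were higher in venous cells and F2r in lymphatic cells. Vwf, the von Willebrand factor that tethers platelets, had 1472 and 1301 CPM in venous, 215 and 184 CPM in capillary and 7.55 and 15.1 CPM in lymphatic cells (-6.77 ± 0.22, adjusted p = 8.01e-84). Procr, the endothelial receptor of protein C, had 516 and 699, 25.6 and 35.3 and 0 and 8.15 CPM in the same order (-6.77 ± 0.26). F5, coagulation factor V, had 242 and 136 CPM in venous cells and at most 3.77 CPM in any sum of the other 2 classes (-6.86 ± 0.38). F2r, the thrombin receptor PAR1, had 260.4 and 139 CPM in lymphatic and 13.1 and 19.7 CPM in venous cells (2.91 ± 0.23).

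The activating complement components Cfb (-4.51 ± 0.45), C1s1 (-4.64 ± 0.49) and C1ra (-2.65 ± 0.29) were higher in venous cells. Serpine2, a protease inhibitor also called nexin-1, and Plau, urokinase, were higher in lymphatic cells (4.90 ± 0.25 and 4.36 ± 0.42), and Plaur, the urokinase receptor, in venous cells (-2.08 ± 0.21).

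Uptake receptors were called higher in lymphatic cells in 6 of 14 cases (Stab1, Stab2, Mrc1, Colec12, Fcgrt and Dab2) and lower in 4 (Cd36, Scarb1, Clec14a and Ly75). The shares over all genes tested were 10.8% and 10.2%. Cd36, which takes up fatty acids, had 2311 and 2095 CPM in capillary, 982 and 1048 CPM in venous and 94.3 and 139 CPM in lymphatic cells (-3.25 ± 0.17 for lymphatic over venous). Fatty acid carriers gave the same order: Fabp4 had 9565 and 9679.7, 2792 and 4591 and 366 and 713 CPM (-2.98 ± 0.16). Lymphatic values were the lowest in both libraries for both genes.

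Matrix genes split in number, 10 of 37 higher and 12 lower in lymphatic cells, beside 10.8% and 10.2% of all genes tested. Col23a1, a transmembrane collagen, had 513 and 410.0 CPM in lymphatic and 26.3 and 14.5 CPM in venous cells (4.42 ± 0.22), and Fgl2, a secreted fibrinogen-like protein, 3169.8 and 3619.8 CPM against 175 and 129 CPM (4.31 ± 0.16). On the venous side, Fbln2, fibulin-2, had 683 and 579.8 CPM against 64.2 and 43.1 CPM (-3.91 ± 0.19), and Bgn, the proteoglycan biglycan, 233 and 272 CPM against 18.9 and 40.4 CPM (-3.10 ± 0.21). Bgn was in 249 of 434 venous cells of library 2, whereas 67 of the 110 Col3a1 UMIs there were in 1 cell. Fibroblast markers summed to 7.51 and 249 CPM in venous and to 3.77 and 47.0 CPM in lymphatic cells; in library 1, 6 of the 8 were at 0 in venous and 7 in lymphatic cells. Their part in the matrix differences of library 2 was not tested.

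Of 13 proteases tested, 8 were higher in venous cells, among them the cathepsin gene Ctsh and Ace, the angiotensin-converting enzyme, and 2 in lymphatic cells. Adamts4, an aggrecanase that also cleaves versican, had 1972 and 2122 CPM in venous, 356 and 386 CPM in capillary and 0 and 41.5 CPM in lymphatic cells (-6.18 ± 0.41). Adamts9 had 826 and 1002, 316 and 322 and 22.6 and 19.4 CPM in the same order (-5.81 ± 0.22). The inhibitors Timp2 (2.72 ± 0.17) and Timp3 (2.13 ± 0.14) were higher in lymphatic cells and Timp1 (-3.88 ± 0.40) in venous cells. Timp3 had 4992 and 4888 CPM in lymphatic and 989.5 and 915 CPM in venous cells.

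Among integrin subunits, Itgb4, of the laminin-binding pair with Itga6, was higher in venous cells at 216 and 266 CPM against 7.55 and 7.38 CPM (-5.29 ± 0.27), and Itgav in lymphatic cells at 208 and 132 CPM against 9.39 and 8.97 CPM (3.76 ± 0.27). At junctions, Cldn11, a claudin, had 30.2 and 33.0 CPM in lymphatic cells and no UMI in either other class, at least 36.1-fold higher than in venous cells. Of 20 junction genes, 3 were called in each direction, beside 10.8% higher and 10.2% lower over all genes tested. The ion channel Piezo2, a mechanosensor, had 192 and 136 CPM in lymphatic and 0 and 1.72 CPM in venous cells (6.33 ± 0.38).

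Vasomotor genes were higher in lymphatic cells in 9 of 19 cases and lower in 6, beside 10.8% and 10.2% of all genes tested. Nts, the peptide neurotensin, had 128 and 113 CPM against 1.88 and 0.690 CPM (6.70 ± 0.44), though 19 of its 34 lymphatic UMIs in library 1 were in 1 cell. Kcnn3, a calcium-activated potassium channel, had 219 and 208 CPM against 0 and 1.38 CPM (7.20 ± 0.38). Ptgs1, cyclooxygenase-1, was venous, at 353 and 319.8 CPM against 0 and 4.66 CPM (-6.42 ± 0.29), and so was Slco2a1, which carries prostaglandins into cells, at 3228 and 2458 CPM against 45.3 and 76.5 CPM (-5.61 ± 0.20). Igfbp5, a binding protein of insulin-like growth factors, had 1098 and 1176 CPM in lymphatic and 0 and 18.3 CPM in venous cells (6.18 ± 0.42).

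Solute carriers were higher in venous than in lymphatic cells in 11 of 23 cases and lower in 4. Glycolysis genes were higher in 5 of 15 (Pfkl, Pfkp, Pkm, Ldha and Ldhb) with 10 not called. Of all genes tested, 10.2% were higher in venous and 10.8% in lymphatic cells. Against capillary cells, venous cells had 2 of the 23 solute carriers higher and 3 lower, and lymphatic cells 3 higher and 11 lower. All 15 glycolysis genes were not called between venous and capillary cells, and 4 were lower in lymphatic than in capillary cells. Of all genes tested, venous cells had 4.47% higher and 5.51% lower than capillary cells, and lymphatic cells 9.81% and 11.8%. Slc2a1, the glucose transporter GLUT1, had 103 and 130.4 CPM in venous and 15.1 and 11.6 CPM in lymphatic cells (-3.63 ± 0.27). Ldha, lactate dehydrogenase A, had 398 and 411 CPM against 79.2 and 143 CPM (-1.96 ± 0.17). By contrast, 0 of 21 nuclear genes of the respiratory chain were called by edgeR or by DESeq2, since none differed at least 2-fold in both libraries. With edgeR 6 had an unadjusted p under 0.05 and the same number an adjusted p under 0.05; with DESeq2 4 had an unadjusted p under 0.05 and 0 an adjusted one. The median log2 difference of the 21 was 0.12.

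**Figure D3:**
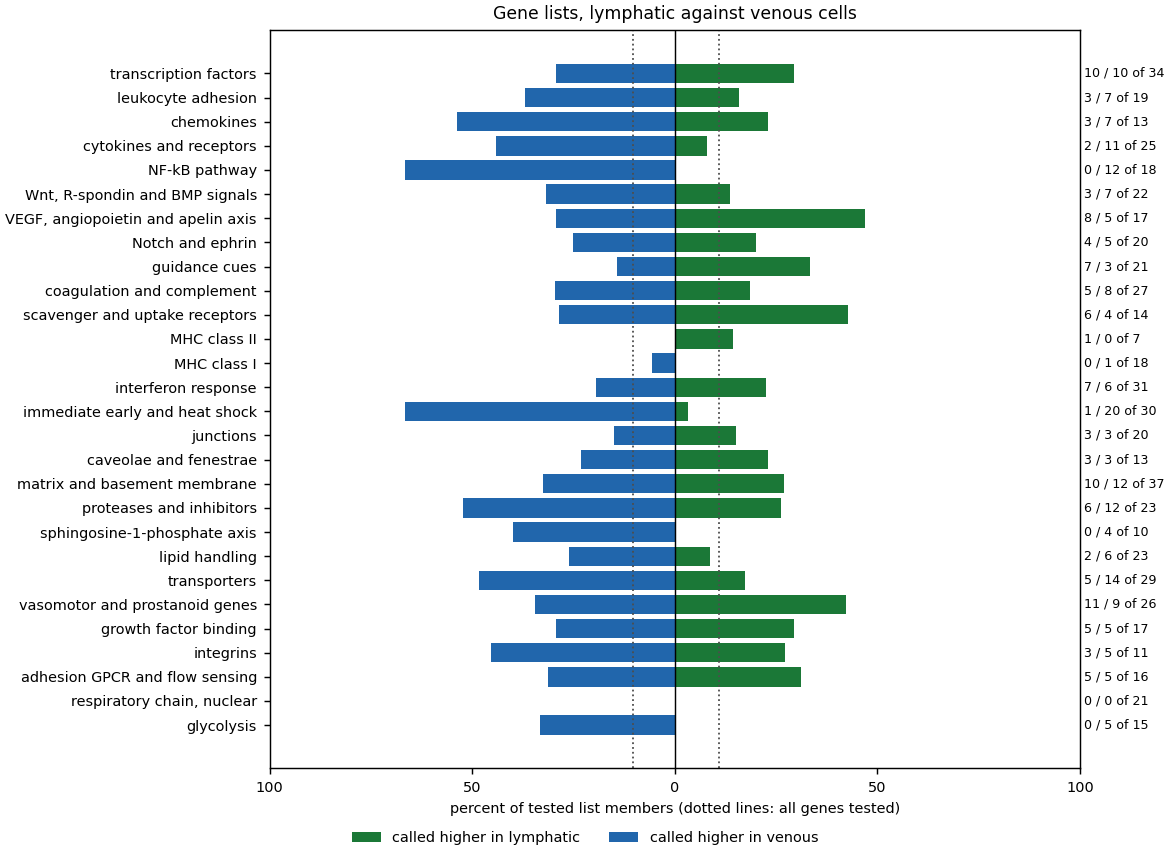
Percent of the tested members of each gene list called higher in lymphatic (right, green) or in venous cells (left, blue), with counts as higher in lymphatic, higher in venous and tested at the right margin; dotted lines give all genes tested (10.8% and 10.2%). NF-kB pathway genes (12 of 18) and immediate early and heat shock genes (20 of 30) have the longest venous bars, and the respiratory chain has none.

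Both classes were then set against capillary cells. The comparisons share the capillary sums, so each is given by its own values. Lymphatic cells had 1020 genes higher (9.81%) and 1224 lower (11.8%), and venous cells 465 higher (4.47%) and 573 lower (5.51%). In both classes, 171 genes were higher (1.65% of those tested) and 317 lower (3.05%). The 171 were 16.8% of the genes higher in lymphatic cells and 36.8% of those higher in venous cells, and the 317 were 25.9% and 55.3% of the lower genes. Of the 171, 64 were also higher in lymphatic than in venous cells, 16 lower, and 91 not called between them.

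Nitric oxide and innate immune genes were among the 12 leading genes higher in both. Gucy1a1, the alpha subunit of the nitric oxide receptor guanylate cyclase, had 562 and 460.5 CPM in lymphatic, 475 and 257 CPM in venous and 3.84 and 3.38 CPM in capillary cells, a log2 difference from capillary of 6.97 ± 0.25 in lymphatic and 6.63 ± 0.26 in venous cells. Its partner Gucy1b1 was higher in both, at 6.55 ± 0.26 and 2.69 ± 0.36, but venous cells had 26.3 and 21.0 CPM and lymphatic cells 369.8 and 382 CPM. Lbp, the carrier protein of bacterial lipopolysaccharide, had 513 and 500.1 CPM in lymphatic, 233 and 169 CPM in venous and 0 and 3.38 CPM in capillary cells (differences from capillary of 7.36 ± 0.27 and 6.20 ± 0.28). Serping1, the C1 inhibitor, had 279 and 304, 205 and 205 and 2.56 and 7.97 CPM (5.35 ± 0.24 and 5.07 ± 0.24). For each of the 4 genes, every lymphatic and venous value lay above both capillary values.

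Sirpa, the receptor of the CD47 signal, had 158 and 211 CPM in lymphatic, 82.6 and 50.4 CPM in venous and 1.28 and 0.966 CPM in capillary cells. Tgfbi, a matrix protein induced by TGF-beta, was at 223 and 245 CPM in lymphatic, 208 and 194 CPM in venous and 1.28 and 3.86 CPM in capillary cells, with a lymphatic over venous difference of 0.02 ± 0.17. Fgl2 had 2.56 and 5.55 CPM in capillary cells and was higher by 9.32 ± 0.23 in lymphatic and 5.02 ± 0.25 in venous cells. For Nr2f2 the smaller of the differences from capillary cells was the venous one, at 4.21 ± 0.19. The cathepsin gene Ctsh was the only 1 of the 12 called higher in venous than in lymphatic cells, at 133 and 186 CPM against 56.6 and 63.7 CPM, with 1.28 and 2.17 CPM in capillary cells. Wipf3, Fxyd6, Pgm5 and Olfm1 completed the 12.

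Of 7 MHC class II antigen presentation genes tested, 4 were higher in both classes, beside 1.65% of all genes: H2-Aa, H2-Ab1, H2-DMb1 and Cd74. H2-Ab1 had 113 and 172 CPM in lymphatic, 107 and 82.1 CPM in venous and 14.1 and 17.4 CPM in capillary cells (3.17 ± 0.23 and 2.61 ± 0.23). Cd74, the invariant chain, had 174 and 288, 398 and 309 and 21.7 and 52.2 CPM (2.48 ± 0.29 and 3.22 ± 0.28). In library 2, 1 lymphatic cell held 48.4% of the lymphatic Cd74 UMIs and 1 capillary cell 46.3% of the capillary ones. For H2-Aa these shares were 43.4 and 56.7%, and for H2-Ab1 22.9 and 44.4%. In library 1, 1 lymphatic cell held 45.5% of the lymphatic H2-Aa UMIs. After cells with a UMI of the 5 genes of other cell types were left out, 5 of 6 MHC class II genes tested were higher in both. That repeat still held 112 and 37.1 CPM of myeloid markers in lymphatic cells. With equal cell numbers 2 of 6 were higher in both, and Cd74 and H2-Aa were not called. Of 18 MHC class I genes, H2-Q4 alone was called between lymphatic and venous cells (-2.02 ± 0.16).

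Interferon response genes higher in both were Gbp2, Gbp6, Gbp8, Ifit1 and Zbp1, 5 of 31 tested, beside 1.65% of all genes. Gbp2, an interferon-induced guanylate-binding protein, had 264 and 464 CPM in lymphatic, 205 and 245 CPM in venous and 69.1 and 75.6 CPM in capillary cells (2.35 ± 0.18 and 1.85 ± 0.18), and its venous call was lost against only the capillary cells with more Gpihbp1 and Aqp1. Between the classes, Iigp1 was higher in venous cells, at 2754 and 2748 CPM against 419 and 641 CPM (-2.57 ± 0.15). Reads of these GTPase families and of MHC genes can be shared between near-identical copies.

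**Figure D4:**
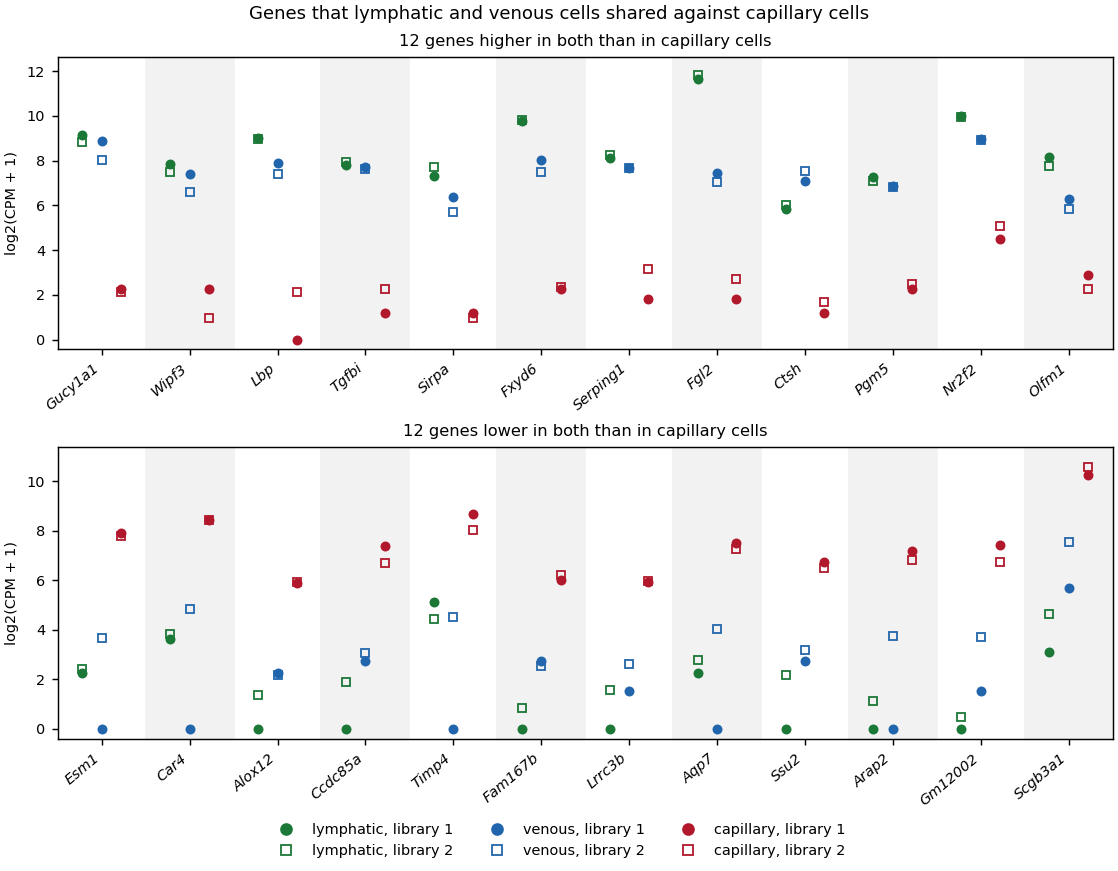
Levels of the 12 leading genes higher (top) and lower (bottom) in both lymphatic and venous than in capillary cells, as log2(CPM + 1), with 1 point for each library (filled, library 1; open, library 2). In the top panel all capillary points lie at or below 33.1 CPM, and in the bottom panel all capillary points lie above the 4 lymphatic and venous points of the same gene.

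Genes lower in both classes were led by products of capillary endothelium. Esm1, the secreted proteoglycan endocan, had 239 and 221 CPM in capillary, 3.77 and 4.27 CPM in lymphatic and 0 and 11.7 CPM in venous cells (-5.80 ± 0.32 and -4.39 ± 0.26). Car4, a membrane carbonic anhydrase, had 347 and 347, 11.3 and 13.2 and 0 and 27.6 CPM (-4.88 ± 0.56 and -3.88 ± 0.48). Aqp7, a channel for water and glycerol, had 178 and 151, 3.77 and 5.82 and 0 and 15.2 CPM. The group depended on which capillary cells were used. Against only those with more Plvap than Gpihbp1 and Aqp1, Timp4 was higher and not lower in both classes, by 1.93 and 1.79, and the venous call of Aqp7 was lost. The venous calls of Esm1 and of Scgb3a1 were lost against only those with more Gpihbp1 and Aqp1. Scgb3a1, a secretoglobin, was at 1207 and 1518 CPM in capillary, 50.7 and 185 CPM in venous and 7.55 and 24.1 CPM in lymphatic cells, and its venous call was also lost without the library as a block. Alox12, Ccdc85a, Timp4, Fam167b, Lrrc3b, Ssu2, Arap2 and Gm12002 were the others.

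Of 13 Notch pathway genes, 5 were lower in both, beside 3.05% of all genes tested: Dll4, Jag2, Notch4, Hey2 and Nrarp. Dll4, the Notch ligand of sprouting and arterial endothelium, had 319.7 and 302 CPM in capillary, 102 and 119 CPM in lymphatic and 24.4 and 46.9 CPM in venous cells (-1.52 ± 0.18 and -2.75 ± 0.19), and its lymphatic call was lost against only the capillary cells with more Gpihbp1 and Aqp1. Of 37 matrix and basement membrane genes, 7 were lower and 3 higher in both, beside 3.05% and 1.65% of all genes tested. Col4a1, a chain of basement membrane collagen IV, had 1853 and 1646, 472 and 506 and 193 and 394 CPM (-1.93 ± 0.18 and -2.37 ± 0.18), and Col4a2 differed by -2.59 ± 0.17 and -2.20 ± 0.16. In lipid handling, 4 of 23 genes were lower in both, Fabp4, Fabp5, Pltp and Slc27a3, beside the same 3.05%.

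Cells of a class differed among themselves. Shares of cells with a UMI were taken after thinning each cell to 1500 UMIs, which left out 15 and 266 lymphatic and 3 and 3 venous cells below that depth. Gucy1a1 was found in 47.0 and 46.5% of lymphatic, 38.3 and 28.5% of venous and 0.930 and 0.278% of capillary cells, against 61.7 and 55.4%, 77.3 and 65.0%, and 0.823 and 0.694% before thinning. Nr2f2 was in 80.3 and 76.1% of lymphatic and 44.7 and 47.8% of venous cells (91.4 and 81.9%, and 79.4 and 79.7%, before thinning). Fgl2 was near universal in lymphatic cells, at 95.5 and 97.4%, and in 18.1 and 13.5% of venous cells (97.5 and 97.7%, and 41.2 and 40.1%, before thinning).

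Venous inflammatory genes were found in part of the class. Sele was in 37.2 and 40.8% of venous cells (44.3 and 57.1% before thinning) and in at most 0.276% of lymphatic cells. Vcam1 was in 34.0 and 38.1% (61.9 and 69.1%), and Cxcl10 in 20.2 and 20.4% (24.7 and 29.5%). Icam1 was broader, at 83.0 and 83.8% of venous cells, with 21.2 and 23.8% of lymphatic cells and 25.1 and 25.4% of capillary cells. Cxcl10 was in 37.1 and 31.8% of the venous cells with a Sele UMI and in 10.2 and 12.5% of those without. Adgrg6 gave no such order, at 51.4 and 60.8% of cells with and 83.1 and 55.3% of cells without a Sele UMI. These are shares of cells within 2 libraries, given with no test.

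**Figure D5:**
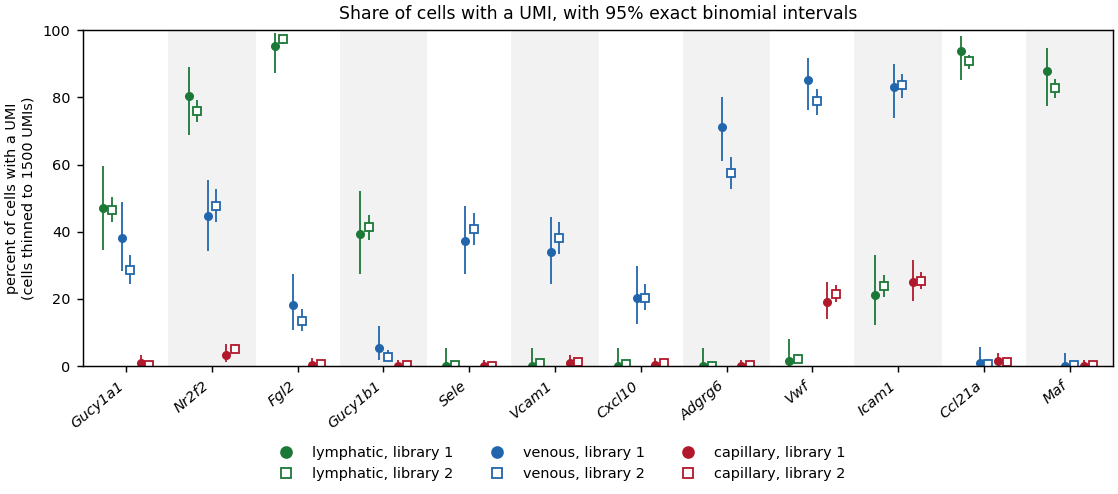
Percent of cells with at least 1 UMI of each gene, in cells thinned to 1500 UMIs, by class and library (filled, library 1; open, library 2), with 95% exact binomial intervals that cover counting error only. Sele, Vcam1 and Cxcl10 lie at 20.2 to 40.8% of venous cells, while Icam1, at 83.0 and 83.8%, and Vwf, at 85.1 and 78.9%, were found in most of them.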

How the data were processed

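The values the authors deposited were raw UMI counts for 31053 genes, with 1026 barcodes in library 1 and 6302 in library 2; how barcodes were taken as cells is not stated in the labels. Per the labels the chemistry was Chromium Single Cell 3' v3, and per the submitters' processing notes bcl2fastq 2.2, Cell Ranger 3.1.0 and the mm10 build were used; which gene annotation was used was not given in the sources used here. Whether both libraries came from separate mice is not stated in the labels.

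Barcodes entered the gates when they had 500 or more genes and no more than 15% of UMIs from mitochondrial genes. Scrublet marked 4 and 5 cells, under 0.5% in each library, so no doublets were removed on its calls; leaving out the highest 5% of its scores was an alternative. UMIs were summed per library and class, which gave 6 sums of 3 classes. These were tested with edgeR 4.0.16 (quasi-likelihood, robust, TMM scaling, low-count filter with a minimum of 10, library as block, Benjamini-Hochberg adjustment over all genes tested), on 2 residual degrees of freedom per gene with a median prior of 258. The block was kept because the classes of 1 library come from the same sample; the differences between libraries correlated across genes between classes with r of 0.150, 0.112 and 0.193 (genes are not independent replicates). The 2-fold criterion used log2 of CPM + 1. On simulated counts of 10147 genes with 200 changed, the adjusted p alone recovered 87.5% of 4-fold and 34.6% of 2-fold changes for lymphatic against venous cells, with 2 false calls. The simulation drew all 6 sums from 1 shared profile with 1 fixed spread. It held no library differences and no single cells with many UMIs of a gene, so it does not give the error rate in these data.

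The text names the 12 largest called differences in each direction among genes that reached 50 CPM, in each library, in whichever class was higher, the 12 shared genes with the largest smaller difference by the same level rule, and members of gene lists. The cell classes and lists were chosen with earlier results of these data known, so their counts are descriptions. Gene coordinates are GENCODE vM21 on GRCm38, matched by gene ID for 99.9% of the genes tested. Genes with near-identical copies (Ccl21a, Gbp, Tgtp, H2 and Ly6 families) are uncertain. Intervals and floors cover counting error only. Alternatives were other cell filters, gates, scalings, low-count filters, fits, equal cell numbers, thinned cells and capillary subsets, DESeq2 1.42.0, and leaving out each library.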

Additional observations from a re-analysis of the deposited data

How the results depend on the processing

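Counts of called genes ranged over the alternatives from 710 to 1177 for genes higher and from 786 to 1168 for genes lower in lymphatic than in venous cells, from 112 to 209 for genes higher in both than in capillary cells and from 178 to 364 for genes lower in both. With DESeq2, 710 genes were higher in lymphatic cells, of which 707 were among the 1126 of edgeR, and 178 were lower in both classes; with cells thinned to 1500 UMIs, 112 were higher in both, and the cause of these lower counts was not tested. Without the replicate block the counts were 1085 higher, 1039 lower, 166 higher in both and 291 lower in both. Of 451 differences of named genes, 356 kept their call under every alternative; of 5470 values recomputed, 5292 kept direction and call, 166 kept direction but not the call, and 12 turned in direction, all in capillary comparisons with part of the capillary cells. With only capillary cells that had more Plvap, the differences were 1.93 (lymphatic) and 1.79 (venous) for Timp4, 1.89 and 0.77 for Bmp6, and 1.11 (venous) for Abcb1b. With only those that had more Gpihbp1 and Aqp1, they were 0.11 (lymphatic) and 0.61 (venous) for Plat and, in venous cells, 0.94 for Chst2, 1.41 for Col13a1, 0.105 for Lama3, 0.0123 for Plpp3 and 0.78 for Slc16a1. The venous calls against capillary cells of Ccl2, Rspo3 and Fabp4 were each lost under several alternatives. A capillary gate that allowed up to 5 arterial UMIs was chosen after seeing the data. Leaving out 1 library leaves no residual degrees of freedom, so values and no counts were computed; all 902 single-library values kept their direction, as the call rule requires. The low-count filter, the shallow lymphatic sum of library 1 (265004 UMIs) and 2 libraries limit what could be called.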
